A study of Mus musculus with 8 samples.

Results

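Mouse embryonic stem cells (mESCs) that had been cultured for 5 days (D5) were compared with mESCs cultured for 1 day (D1) in 4 pairs of libraries, which are all 8 libraries of the series. The members were all libraries of either duration, and each pair held a D5 and a D1 library of the same location and the same Rad9 genotype: Ground R9del, Ground R9wt, Space R9del and Space R9wt. R9wt cells were wild type and R9del cells were Rad9-/- mESCs, which lack a subunit of the checkpoint clamp that is loaded onto damaged DNA. Space cultures grew in closed devices aboard a recoverable satellite, and ground cultures grew in the same kind of payload on Earth. Each library came from 1 device, so every condition was measured once and the 4 pairs differ from each other in genotype and location. Whether a genotype was represented by 1 line or several was not given in the sources used here. The D1 and the D5 devices sat on separate temperature controllers, fewer cells were seeded for D5 than for D1, and this reduction was larger for R9wt than for R9del. The devices had no oxygen or carbon dioxide controller, and the D1 cells, fixed with RNAlater inside the device, were kept cold for longer than the D5 cells before RNA extraction. Culture duration, device group, seeding number and storage time therefore cannot be told apart.

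mESCs self-renew under LIF signalling and a network built on Pou5f1, Sox2 and Nanog. Without sustained signals they leave the naive state, first towards a formative and primed state that resembles the epiblast after implantation, and a minority can take on features of the extra-embryonic lineages. One of these is the primitive endoderm, which is specified by Gata6 and Gata4, gives rise to parietal and visceral endoderm, and secretes a basement membrane of laminin, nidogen and type IV collagen. Dense, ageing cultures also change growth factor exposure, nutrient supply and cell contact.

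Total counts ranged from 58238440 to 96416907 per library, and values are given as CPM, which are read counts scaled by TMM to a common library size, in which 3 counts correspond to 0.0335 to 0.0503 CPM. Rad9a was at 20.8 to 28.6 CPM in the R9del libraries and 70.3 to 93.4 CPM in the R9wt libraries, with no overlap. The markers of mESCs were high at both durations, with Pou5f1 at 1434 ± 352 CPM at D1 and 1234 ± 304 CPM at D5 (mean ± SD, n = 4). Fibroblast markers were low, with 7 of 12 above the filter on low counts, Dcn, Lum, Postn, Prrx1 and Fap below it, and a summed level for the 7 of 27 to 54.7 CPM at D1 and 31.8 to 62.9 CPM at D5. In the following, values are listed in the order Ground R9del, Ground R9wt, Space R9del and Space R9wt, and coordinates are those of mm9.

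Of 20473 genes tested in edgeR's quasi-likelihood fit with the pair as a block, none passed a Benjamini-Hochberg adjusted p of 0.05 (0% called). The smallest adjusted p was 0.302. At an unadjusted p under 0.05, 1830 genes (8.94%) differed at any fold, 5.4% higher and 3.54% lower, and DESeq2 placed 330 genes higher and 166 lower at an adjusted p under 0.05 with at least 2-fold. With the unadjusted threshold and a fold of at least 2, which the study used and which defines "called" from here on, 589 genes (2.88%) were higher at D5 and 411 (2.01%) were lower, 4.88% of genes in all. Without the block 498 genes were higher and 217 lower, and without the Space R9wt pair 500 were higher and 537 lower. In all 4 pairs, 2160 genes (10.6%) were higher and 1919 (9.37%) were lower, and 120 (0.586%) and 64 (0.313%) were so by at least 2-fold in every pair. Every D5 library lay above every D1 library for 344 genes (1.68%) and below for 240 (1.17%). The p-values rest on the spread between pairs that differ in genotype and location.

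The pairs differed in how far they moved. The SD of the log2 ratio over all genes was 0.819 in Ground R9del, 1.23 in Ground R9wt, 0.923 in Space R9del and 1.22 in Space R9wt. Between pairs, Spearman's rho of the ratios ran from -0.006 for Ground R9wt against Space R9wt to 0.282 for Ground R9del against Ground R9wt, over 20473 genes that are not independent replicates.

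The 12 higher genes named here had the largest change in their weakest pair, among genes whose average log2 CPM reached 1. This cut admits low levels. Vnn1, Habp2, Xlr3b, Crxos1, Nxf7, Hkdc1 and Slco2a1 had mean D1 levels of 0.610 to 1.88 CPM. They met the cut only through their D5 level, so it favoured a change in this direction. The 12 were led by Habp2, which encodes a plasma serine protease that binds hyaluronan (chr19:56361627-56395312). Habp2 was at 0.822, 0.663, 1.88 and 1.13 CPM at D1 and 3.66, 3.53, 14.2 and 26.3 CPM at D5. Every D5 library lay above every D1 library, and the 2 space libraries of D5 were the highest. The fitted log2 ratio was 2.99 ± 0.47 (SE) with an adjusted p of 0.302, and 8.4% of its exon length is shared with another gene. Vnn1, a pantetheinase of the cell surface (chr10:23614494-23625149), was at 0.404, 0.407, 1.12 and 0.508 CPM at D1 and 1.64, 12.6, 5.33 and 34 CPM at D5. Its log2 ratio of 3.80 ± 0.81 (SE) was the largest of the 12, and the R9wt pairs moved most. Slco2a1, a prostaglandin transporter (chr9:102910817-102990179), was at 1.69, 1.3, 2.6 and 1.91 CPM at D1 and 6.12, 6.42, 15.2 and 28.7 CPM at D5. It was higher in each pair, with the smallest ratio in Ground R9del.

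Hkdc1, a member of the hexokinase family (chr10:61845885-61885239), was at 0.643, 1.72, 2.13 and 2.76 CPM at D1 and 3.39, 6.88, 7.53 and 16.2 CPM at D5, so the lowest D5 library stood just above the highest D1 library. Ctsh, a lysosomal cysteine protease (chr9:89948990-89970927), was at 4.02, 9.19, 6.14 and 9.27 CPM at D1 and 12.8, 26.3, 36.1 and 34.3 CPM at D5. The 2 groups did not overlap and the log2 ratio was 1.90 ± 0.26 (SE). Crxos1 (now Crxos, chr7:16467966-16489379), a gene with homeodomains that is expressed in the early embryo, was at 1.53, 1.87, 1.72 and 1.05 CPM at D1 and 4.93, 7.43, 6.25 and 7.16 CPM at D5. This was one of the more even changes, with D5 values at 6.44 ± 1.12 CPM (mean ± SD, n = 4). 2410076I21Rik (now Rec114, chr9:58500663-58589366), whose product takes part in forming meiotic breaks, was more even still. Its levels were 8.93, 8.5, 12.9 and 7.72 CPM at D1 and 29.6, 34.2, 36.2 and 27.2 CPM at D5, with a log2 ratio of 1.76 ± 0.22 (SE) and an adjusted p of 0.302.

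Nxf7, an X-linked member of the mRNA export factor family (chrX:132114094-132133316), was at 1.48, 1.37, 2.43 and 1.09 CPM at D1 and 5.79, 7.95, 10.9 and 31.8 CPM at D5, highest in Space R9wt at D5. Pdlim4, a PDZ and LIM domain protein of the actin cytoskeleton (chr11:53868430-53882516), was at 6.47, 20.4, 2.91 and 4.33 CPM at D1 and 19.1, 80.8, 11.2 and 32.8 CPM at D5. Adra2b, an alpha-2 adrenergic receptor (chr2:127188944-127192957), was at 2.23, 3.51, 9.04 and 11.9 CPM at D1 and 5.64, 14.9, 25.2 and 48.4 CPM at D5. For both genes the D1 and D5 ranges overlapped, because the levels differed more between pairs than some pairs moved, while each pair moved by more than 2-fold. Of the 12 higher genes, Xlr3a and Xlr3b are described with their family below. All 24 genes of the 2 directions passed an adjusted p under 0.05 in DESeq2, whereas in edgeR the smallest of their adjusted p was 0.302. The 24 were picked from these same counts by their edgeR p and fold, so passing in DESeq2 is no separate support.

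The plot of single-library levels shows 8 of the genes described here, 4 in each direction.

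**Figure D1:**
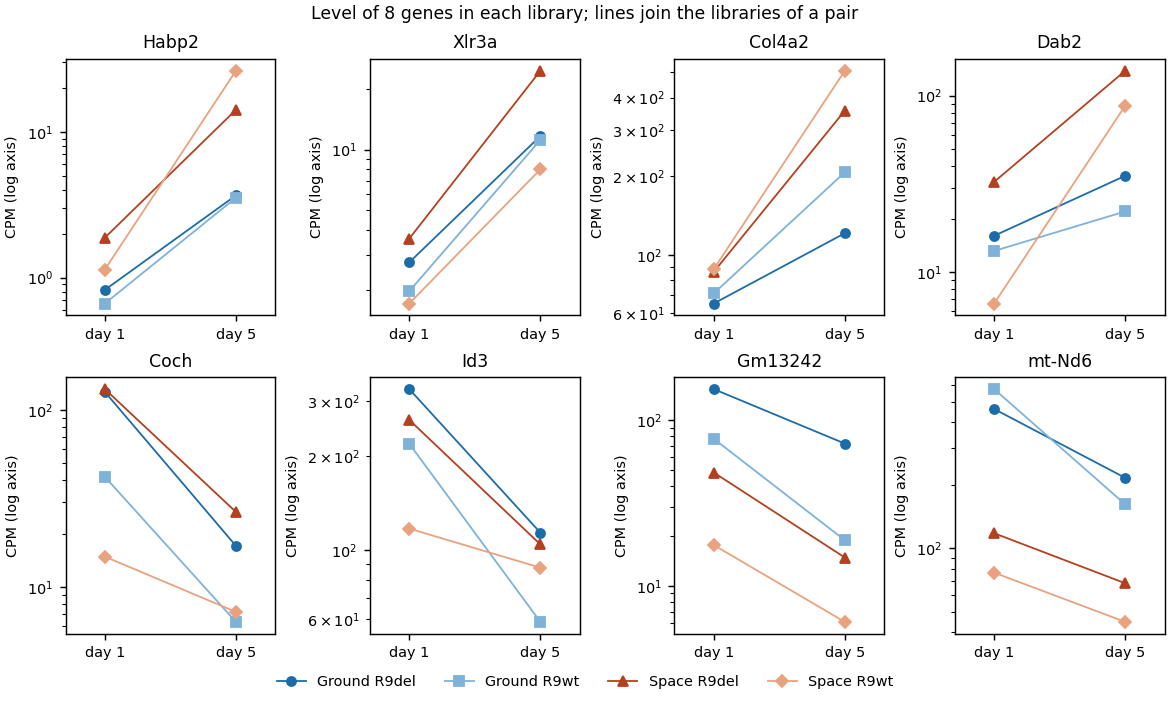
CPM on a log axis for 8 genes at day 1 and day 5, with a line joining the 2 libraries of each pair. Habp2, Xlr3a, Col4a2 and Dab2 were higher at day 5 in all 4 pairs, and Coch, Id3, Gm13242 and mt-Nd6 were lower in all 4. Gm13242 keeps the order of its pairs, so the day 5 and day 1 ranges overlap although each pair moved down.

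Among the 12 lower genes, Calca, Ripply1 and Mtap7d3 had groups that did not overlap. Calca, which encodes calcitonin and its related peptide (chr7:121774994-121779871), was at 59.5, 44.6, 66.3 and 42.3 CPM at D1 and 21.3, 14.7, 27.1 and 8.45 CPM at D5, and no D5 library reached a D1 library. Its log2 ratio was -1.67 ± 0.24 (SE) with an adjusted p of 0.302. Ripply1, a repressor of T-box factors in the somites (chrX:136314088-136316892), was at 13.3, 9.22, 10.8 and 12 CPM at D1 and 5.55, 2.37, 4.24 and 3.47 CPM at D5. Mtap7d3 (now Map7d3, chrX:54051035-54075503), a microtubule-associated protein, was at 6.52, 7.03, 6.04 and 9.42 CPM at D1 and 2.73, 2.84, 2.98 and 3.87 CPM at D5. The highest D5 library of each gene stayed below its lowest D1 library.

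Coch, a secreted protein of the inner ear matrix (chr12:52694361-52706760), was at 126, 41.9, 131 and 14.8 CPM at D1 and 17.1, 6.34, 26.5 and 7.22 CPM at D5. The R9del libraries of D1 were the highest, and the log2 ratio was -2.25 ± 0.34 (SE). Bcl11a, a zinc finger repressor known from haemoglobin switching (chr11:23978056-24074123), was at 20.2, 9.19, 8.44 and 7.17 CPM at D1 and 5.99, 4.1, 2.06 and 1.59 CPM at D5, and Gm98 (now Myrf, chr19:10282762-10315238), a membrane-bound transcription factor of myelination, was at 62.4, 19.2, 43.5 and 16 CPM at D1 and 15.8, 8.21, 14.7 and 7.09 CPM at D5. In neither gene did the groups overlap.

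A pair of neighbouring genes on chromosome 10 was among the 12. 6330407J23Rik (now Soga3, chr10:28863802-28919436) was at 69, 17.8, 32.3 and 11.3 CPM at D1 and 15.5, 7.15, 14.3 and 2.96 CPM at D5, and 9330159F19Rik, which lies next to it on the same strand (chr10:28931449-28950585), was at 43, 1.7, 19.8 and 4.11 CPM at D1 and 2.62, 0.804, 3.27 and 0.246 CPM at D5. The log2 ratio of the second gene was -2.95 ± 0.57 (SE), the lowest of the 12, with its smallest change in Ground R9wt. A further 3 genes, Gm13138, Gm13242 and 2610305D13Rik, encode zinc finger proteins of a single cluster on chromosome 4 and are described with it.

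**Figure D2:**
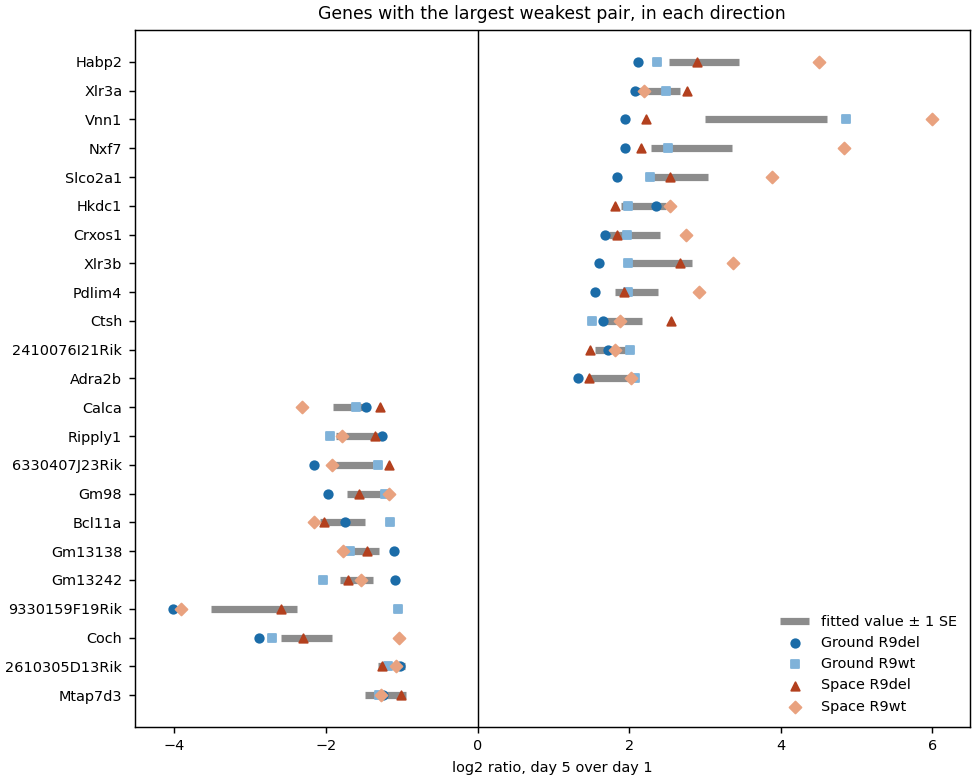
Log2 ratio of day 5 over day 1 in each of the 4 pairs (symbols) for the 12 higher genes and 11 of the 12 lower genes with the largest change in their weakest pair, with the fitted value ± 1 SE as a grey bar. All points of a gene lie on 1 side of 0, as the rule requires. Vnn1 spans the widest range among the higher genes and 9330159F19Rik among the lower genes.

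The list of primitive and visceral endoderm genes held only higher calls. Of 16 listed genes, all above the filter, 9 were higher in all 4 pairs and none was lower in all 4, and 7 were called higher and none lower. Over all genes tested, 10.6% were higher and 9.37% lower in all 4 pairs, and 2.88% were called higher and 2.01% lower. The same shares apply beside the list and family counts that follow. The 7 calls include Afp, which passed the filter only through its D5 level, so that call is no evidence of a direction. The list's median log2 ratio was 1.36, beside -0.004 for all genes tested, and it was positive in each pair, at 0.63, 0.64, 1.45 and 2.44. Their summed level ran from 33.7 to 106 CPM at D1 and from 121 to 404 CPM at D5. In these bulk samples more cells of a type and more RNA per cell cannot be told apart.

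Gata4 and Gata6 encode the zinc finger factors that specify this lineage. Gata4 was at 5.71, 6.46, 4.02 and 3.82 CPM at D1 and 9.73, 9.38, 15.8 and 16 CPM at D5, with all D5 libraries above all D1 libraries and a log2 ratio of 1.34 ± 0.36 (SE). Gata6 was at 4.55, 3.2, 4.19 and 1.81 CPM at D1 and 4.55, 4.62, 14.3 and 13.2 CPM at D5, with equal values, at the digits given, in Ground R9del. Without Space R9del its ratio was 1.08 and without Space R9wt 0.74, neither of which was called. Dab2 and Cubn act in endocytosis at the apical surface of the endoderm, with Amn as the partner that anchors Cubn. Dab2 was at 16, 13.1, 32.4 and 6.61 CPM at D1 and 35.1, 22, 138 and 87.7 CPM at D5, and its log2 ratio was 1.89 ± 0.49 (SE), with 18.7% of its exon length shared with another gene. Cubn was at 17.6, 8.83, 20.4 and 4.96 CPM at D1 and 24.7, 8.96, 135 and 53.5 CPM at D5, so both space pairs moved by several fold while Ground R9wt barely moved. Without Space R9del its ratio was 1.22 and without Space R9wt 1.02, and neither was called.

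Amn was at 7.86, 19.4, 0.526 and 0.941 CPM at D1 and 16.3, 49.1, 6.44 and 2.01 CPM at D5, highest in the ground libraries. Without the block its ratio was 1.36 and it was not called. Cited1, a transcriptional coactivator of the early endoderm and trophoblast, was at 1.72, 3.37, 2.44 and 3.36 CPM at D1 and 4.21, 8.76, 6.62 and 9.29 CPM at D5, with the smallest SE among the called members, at a ratio of 1.39 ± 0.27 (SE). Afp, alpha-fetoprotein, was at 0 in both R9wt libraries of D1 and at 0.396, 1.24, 0.402 and 0.541 CPM at D5. Afp passed the filter on low counts only through its D5 level, so its call is no evidence of a direction. Among members that were not called, Hnf4a had a ratio of 0.52, Pdgfra 0.97, Sox17 1.26 and Ttr 2.34. The day by location term asks whether the change differed between space and ground, and in edgeR it was called for 0% of genes at an adjusted p of 0.05 and for 5.09% (1042 genes) at an unadjusted p of 0.05. DESeq2 called 56 genes at an adjusted p of 0.05. Without Ground R9del, Ground R9wt, Space R9del and Space R9wt in turn, edgeR called 14, 1, 1 and 2 genes at an adjusted p and 2080, 417, 2126 and 790 at an unadjusted p. The space minus ground difference of the log2 ratio was 2.82 for Cubn, 1.97 for Dab2, 2.05 for Gata6, 1.88 for Pdgfra and 1.37 for Gata4. It was 1.15 for Amn, 0.44 for Hnf4a, 0.71 for Sox17 and 0.12 for Cited1, and it had the opposite sign for Ttr (-5.73) and Afp (-1.50), both of which were at or under 1.24 CPM in every library. The smallest adjusted p among these 11 genes was 0.827.

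In the matrix list every call was higher, beside 2.88% of all genes tested that were called higher. Of 24 listed matrix genes, 4 were higher and none lower in all 4 pairs, 3 were called higher and none lower, and the median was 0.47. Col4a1 and Col4a2 encode the 2 chains of the common type IV collagen trimer. Col4a1 (chr8:11198423-11312826) was at 62.5, 68.8, 91.7 and 119.7 CPM at D1 and 112, 181, 381 and 488 CPM at D5, and Col4a2 (chr8:11312805-11449287) was at 65.1, 71.2, 86.1 and 88.2 CPM at D1 and 121, 207, 357 and 507 CPM at D5. The 2 genes moved alike in each pair, with log2 ratios of 0.85, 1.40, 2.06 and 2.03 for Col4a1 and 0.89, 1.54, 2.05 and 2.52 for Col4a2. Fitted ratios were 1.59 ± 0.25 (SE) and 1.75 ± 0.28 (SE), with adjusted p of 0.302 and 0.302. Their ratios were larger in the space pairs than in the ground pairs, by 0.92 and 1.07, again with an adjusted p of 0.827.

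The 2 collagen genes lie head to head, and their promoters are shown because the pair moved together. RefSeq windows of 250 bases before and 50 after each start site in GRCm38.p6 share 78 bases, printed in capitals, which read as the reverse complement of each other in the 2 windows. The Col4a1 window is chr8:11312777-11313076, minus strand and the Col4a2 window is chr8:11312555-11312854, plus strand.
Col4a1: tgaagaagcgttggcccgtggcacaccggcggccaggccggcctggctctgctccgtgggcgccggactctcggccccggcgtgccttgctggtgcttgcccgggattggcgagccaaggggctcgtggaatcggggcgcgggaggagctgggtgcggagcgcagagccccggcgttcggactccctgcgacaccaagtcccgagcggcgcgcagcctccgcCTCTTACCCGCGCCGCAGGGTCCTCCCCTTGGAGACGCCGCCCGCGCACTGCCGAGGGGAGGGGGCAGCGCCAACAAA
Col4a2: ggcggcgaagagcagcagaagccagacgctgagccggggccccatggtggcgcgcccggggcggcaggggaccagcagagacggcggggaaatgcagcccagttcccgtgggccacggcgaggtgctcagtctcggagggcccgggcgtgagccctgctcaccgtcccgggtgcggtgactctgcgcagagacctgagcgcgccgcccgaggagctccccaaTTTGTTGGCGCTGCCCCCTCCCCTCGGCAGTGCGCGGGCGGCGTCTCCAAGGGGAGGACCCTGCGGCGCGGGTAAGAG
The windows hold 37 and 33 CG dinucleotides, beside a median of 7 over 27025 promoters of the same length.

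Nid1, Sparc, Lama1 and Lamb1 were not called, although single pairs differed by more than 2-fold. Nid1, which links laminin to collagen, was at 99.7, 109, 145 and 209 CPM at D1 and 132, 147, 269 and 429 CPM at D5, higher in each pair, with a ratio of 0.69 ± 0.18 (SE). Sparc, a collagen-binding glycoprotein, was at 698, 423, 665 and 515 CPM at D1 and 625, 769, 1644 and 1465 CPM at D5, with a lower D5 value in Ground R9del alone. The laminin chain gene Lama1 was at 125, 89.6, 200 and 101 CPM at D1 and 124, 104, 552 and 369 CPM at D5, nearly flat on the ground, and its day by location difference was 1.57, also with an adjusted p of 0.827. Lamb1 had a ratio of 0.57 ± 0.23 (SE). The fibroblast markers gave no call among 7 tested genes, with Col1a2 at 1.15, 0.826, 2.0 and 0.299 CPM at D1 and 1.35, 2.58, 3.05 and 8.88 CPM at D5 and a median of 0.37.

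Of 13 genes expressed in trophoblast, 10 passed the filter, 5 were higher in all 4 pairs, 1 was lower, and 4 were called higher. Over all genes tested, 10.6% were higher and 9.37% lower in all 4 pairs, and 2.88% were called higher. The list's median was 1.38, at 1.44, 2.08, -0.17 and 3.01 in the pairs and thus below 0 in Space R9del. Krt8, a keratin of simple epithelia (chr15:101827142-101834773), was at 68.4, 36.8, 84.5 and 33.3 CPM at D1 and 189, 246, 126 and 592 CPM at D5. Krt7, another keratin of trophoblast and other simple epithelia, was at 12.1, 8.42, 16.4 and 6.72 CPM at D1 and 53.3, 163, 20.2 and 212 CPM at D5. For both keratins the groups did not overlap and the 2 R9wt libraries were the highest at D5, while Space R9del moved least. Hand1, a bHLH factor of trophoblast giant cells and mesoderm, was at 16.8, 2.11, 29.3 and 2.05 CPM at D1 and 63.3, 14.4, 33.7 and 113 CPM at D5, and without Ground R9wt its ratio of 2.41 was no longer called. Tcfap2c, an AP-2 factor, was at 67.3, 71.6, 78 and 33.8 CPM at D1 and 179, 132, 81.6 and 163 CPM at D5, and without Space R9wt its ratio of 0.77 was below 2-fold. Plac1 had a ratio of 2.50 that did not pass the threshold.

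The actin and serum response list had 4 called genes among 14 tested, and only 2 were higher in all 4 pairs. Ankrd1, a target of YAP, was at 0.209, 0.326, 0.668 and 1.09 CPM at D1 and 1.34, 3.19, 1.14 and 15.3 CPM at D5. Acta2, smooth muscle actin, was at 1.96, 0.407, 1.24 and 0.627 CPM at D1 and 6.31, 10.3, 1.59 and 37.2 CPM at D5, with little change in Space R9del. Cnn2 and Tpm1, both binding actin filaments, had ratios of 1.27 ± 0.52 (SE) and 1.02 ± 0.33 (SE) and a lower D5 value in Space R9del. The ratio was not called for Cnn2 without Ground R9wt (0.90) or without Space R9wt (0.78), nor for Acta2 without either of these (2.41 and 2.11). For Tpm1 the value was 0.68 without Ground R9wt and 0.92 without Space R9wt, and under library-size scaling or DESeq2 it fell just short of 2-fold.

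Krt7, Krt8, Acta2, Cnn2 and Vnn1 had larger ratios in both R9wt pairs than in both R9del pairs. In edgeR the day by genotype term was called for 0% of genes at an adjusted p of 0.05 and for 3.77% (771 genes) at an unadjusted p of 0.05, and DESeq2 called 142 genes at an adjusted p of 0.05. With the same pairs left out in turn, edgeR called 0, 3, 0 and 22 genes at an adjusted p and 437, 3151, 232 and 3324 at an unadjusted p. The R9del minus R9wt difference of the log2 ratio was -3.41 for Krt7, -2.42 for Krt8, -4.24 for Acta2, -2.30 for Cnn2 and -3.37 for Vnn1. Adjusted p values for these 5 genes were 0.882 or above. The seeding number was reduced more for R9wt at D5, so genotype and seeding number cannot be told apart in this term.

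The core pluripotency genes gave no call among 10 tested, and their median was -0.25. Pou5f1 had a ratio of -0.21 ± 0.20 (SE), Nanog 0.44 ± 0.36 (SE) and Sox2 0.08 ± 0.24 (SE). The sign for Pou5f1 turned without Ground R9wt, and that for Sox2 turned without the block or without Space R9wt. Lin28a, an inhibitor of let-7 processing, was lower in all 4 pairs at -0.44 ± 0.17 (SE), and Dppa5a was higher in 3 at 0.56 ± 0.21 (SE). The naive list had 5 of 14 genes higher in all 4 pairs and none lower, and 1 was called. The called gene was Dppa3, which protects maternal methylation marks in the zygote. It was at 3.44, 6.24, 2.93 and 5.05 CPM at D1 and 10.7, 48.3, 3.14 and 17.9 CPM at D5, with the least change in Space R9del.

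Tcl1, an activator of Akt, was at 78.3, 84.5, 68.5 and 73.2 CPM at D1 and 168, 86.1, 176 and 163 CPM at D5, more than 2-fold higher in 3 pairs and nearly flat in Ground R9wt. Socs3 and Tbx3, both induced by LIF, and Tcfcp2l1, a factor of the naive network, had ratios of 0.48 ± 0.16 (SE), 0.53 ± 0.21 (SE) and 0.61 ± 0.22 (SE). Klf4 was higher in 3 pairs at 0.51 ± 0.20 (SE). These 5 genes passed an unadjusted p of 0.05 at less than 2-fold.

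The list for the formative and primed state held 2 calls, both lower. Of 10 tested, 4 were lower in all 4 pairs and none higher, and the median of -1.08 was the lowest of the 39 lists. Wnt8a, a ligand of the primitive streak, was at 1.73, 0.675, 1.44 and 0.717 CPM at D1 and 0.533, 0.357, 0.62 and 0.115 CPM at D5. The D5 level of Wnt8a alone would not have passed the filter on low counts, so its call is no evidence of a direction. Zic5, a zinc finger factor of the epiblast and neural plate, was at 6.95, 28.9, 5.07 and 24.4 CPM at D1 and 6.36, 6.89, 3.59 and 4.62 CPM at D5, with most of its change in R9wt. It was not called without Ground R9wt (-0.99) or Space R9wt (-0.91), nor was Wnt8a without Ground R9del (-1.55). Of 8 early neural genes tested, 2 were lower and 1 higher in all 4 pairs and 1 was called, lower, and the median was -0.083, at -0.53, -0.10, 0.22 and -0.27 in the pairs. The called gene Pax6, a paired box factor, was at 2.27, 1.11, 1.78 and 2.66 CPM at D1 and 0.711, 0.0782, 0.402 and 0.393 CPM at D5. No D5 library reached a D1 library, the ratio was -2.54 ± 0.50 (SE) with an adjusted p of 0.363, and 27.9% of its exon length is shared with another gene. As for Wnt8a, the D5 level of Pax6 alone would not have passed the filter, so its call is no evidence of a direction. Nes, the intermediate filament of neural precursors, had a ratio of -0.65 ± 0.23 (SE).

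The list of DNA methylation enzymes held no call. Of 8 genes, 5 were lower in all 4 pairs and none higher, beside a median of -0.54. The share of all genes tested that was lower in all 4 pairs was 9.37%. Dnmt3a, a methyltransferase that sets new marks, was at 34.3, 45.6, 35 and 47.6 CPM at D1 and 15.9, 15.7, 27.7 and 29.9 CPM at D5, with no overlap of the groups. Dnmt3b was at 167, 89.6, 116 and 59.4 CPM at D1 and 105, 62.8, 85.2 and 48 CPM at D5, and Uhrf1, which brings Dnmt1 to replicated DNA, was at 238, 270.4, 374 and 427 CPM at D1 and 175, 169.7, 339 and 224 CPM at D5. Their ratios were -0.91 ± 0.25 (SE), -0.48 ± 0.16 (SE) and -0.55 ± 0.18 (SE). Dnmt1 itself was lower in all 4 pairs at -0.37 without passing p of 0.05.

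Calls went both ways among genes of Nodal and BMP, FGF and ERK, and Wnt signalling, and the medians of these 3 lists were 0.25, -0.21 and -0.01. The Nodal and BMP median ran from -1.16 in Ground R9wt to 1.43 in Space R9wt. Id1 and Id3 encode inhibitors of bHLH factors that BMP induces in mESCs. Id3 (chr4:135699412-135701670) was at 327, 219, 261 and 117 CPM at D1 and 113, 58.8, 104 and 87.7 CPM at D5, and Id1 (chr2:152561987-152563146) was at 107, 34, 64.8 and 21 CPM at D1 and 40.5, 15.1, 41.1 and 10.1 CPM at D5. Id3 had no overlap of the groups and a ratio of -1.30 ± 0.26 (SE), and Id1 had a ratio of -1.07 ± 0.20 (SE) that was not called without the block or without Ground R9del (-1.08 with p above 0.05 and -0.97). They were the 2 lower calls among 17 genes of Nodal and BMP signalling, and Cfc1, a Nodal co-receptor, was the 1 higher call at 1.89 ± 0.52 (SE). Of 12 genes of FGF and ERK feedback, 3 were called lower and 1 higher.

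Dusp6, a phosphatase of ERK, was at 178, 66.9, 252 and 67.8 CPM at D1 and 93.9, 11.3, 145 and 59.2 CPM at D5. Etv4, an ETS factor downstream of ERK, was at 237, 124, 125 and 125 CPM at D1 and 136, 27.1, 125 and 19.3 CPM at D5, and Spry4, an inhibitor of the pathway, was at 131, 94.9, 328 and 116 CPM at D1 and 73.7, 5.72, 383 and 24.9 CPM at D5. Etv4 was flat and Spry4 higher in Space R9del, and the R9del minus R9wt differences were 2.05 and 2.83, with an adjusted p of 1. All 3 calls were lost without the block and without Ground R9wt, at -0.64, -1.13 and -0.93, and those of Etv4 and Spry4 also without Space R9wt, at -1.01 and -1.44. Spry2 was lower in all 4 pairs at -0.93 ± 0.27 (SE), and the receptor gene Fgfr2 was the higher call at 1.12 ± 0.38 (SE), which was lost without Ground R9wt (0.83) or Space R9wt (0.98). Among 11 Wnt targets Lef1, the nuclear partner of beta-catenin, was at 13.1, 29.2, 7.26 and 3.84 CPM at D1 and 3.33, 4.14, 2.26 and 3.24 CPM at D5. Axin2, a feedback inhibitor, was at 14.8, 2.93, 12.4 and 16.1 CPM at D1 and 5.64, 2.7, 6.05 and 3.85 CPM at D5. Both were lower in all 4 pairs, although Lef1 barely moved in Space R9wt and Axin2 in Ground R9wt. Axin2 was not called without Ground R9del (-1.08) or Space R9wt (-0.88). Wnt6, a ligand, was called higher at 1.29 ± 0.53 (SE) but not without the block (0.76), without Ground R9wt (1.18) or without Space R9wt (0.72).

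The list of mitochondrially encoded genes held only lower calls. Of the 13 protein-coding genes, 9 were lower in all 4 pairs and none higher, 3 were called lower, and the median was -0.72. Over all genes tested, 9.37% were lower in all 4 pairs and 2.01% were called lower. mt-Nd6, a complex I subunit and the protein gene on the light strand, was at 461, 573, 118 and 76.5 CPM at D1 and 217, 162, 68.2 and 44.6 CPM at D5, with a ratio of -1.12 ± 0.22 (SE). mt-Nd2 was at 1121, 1350, 205 and 83.6 CPM at D1 and 700.3, 207, 132 and 61.5 CPM at D5 and mt-Atp6 was at 6305, 3089, 2347 and 577 CPM at D1 and 5169, 1187, 1262 and 46.8 CPM at D5. Ground R9wt moved most for mt-Nd2 and Space R9wt for mt-Atp6. No call among the 3 held without the block or without Ground R9wt, the latter at -0.89, -0.59 and -1.53, and mt-Atp6 was at -0.88 without Space R9wt. The share of all counts from the mitochondrial genome was 3.39%, 2.47%, 1.82% and 1.37% at D1 and 2.46%, 1.20%, 1.46% and 1.12% at D5, lower at D5 in every pair. Storage after fixation also differed between D1 and D5, and its part in these values was not tested.

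Cell cycle lists held 1 call. Ccne2 and Ccne1, the E cyclins that drive entry into S phase, had ratios of -0.92 ± 0.19 (SE) and -0.62 ± 0.24 (SE), and Ccnd1, a D cyclin, -0.84 ± 0.21 (SE). Ccne2 was at 55.6, 42.8, 26 and 25.4 CPM at D1 and 28.5, 23.6, 13 and 14 CPM at D5, lower in each pair. Of 20 genes of DNA replication, 6 were lower in all 4 pairs and none higher, with Mcm5, a helicase subunit, at -0.66 ± 0.17 (SE) and Cdt1, a licensing factor, at -0.46 ± 0.16 (SE). No gene of this list, of the G1 list or of the mitotic list was called. Of 45 replication histone genes tested, 14 were lower in all 4 pairs, 1 was higher and 1, Hist2h2bb, was called at -1.58 ± 0.44 (SE), beside a median of -0.58. Of 18 mitotic genes, 5 were lower in all 4 pairs and 2 higher, with a median of -0.21, and the 1 gene that passed an unadjusted p of 0.05 was Ccnb2, a mitotic cyclin, higher in all 4 pairs at 0.56 ± 0.19 (SE).

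Metabolic and stress lists held 1 call or none each, beside 4.88% of all genes tested that were called. Hypoxia genes had a median of -0.05 with 1 call among 21, Vegfa, an angiogenic ligand, which was at 3.48, 10.1, 4.52 and 8.3 CPM at D1 and 11.8, 24.1, 5.92 and 24.4 CPM at D5. Glycolysis genes had a median of -0.08 with 1 call among 18, Hk1, at 1.06 ± 0.26 (SE), which fell below 2-fold without Ground R9del (0.99) or Ground R9wt (0.79). Of 23 genes of cholesterol synthesis and uptake tested, 5 were higher in all 4 pairs and none was called, with Sqle at 0.52 ± 0.16 (SE) and Stard4 at 0.64 ± 0.20 (SE). No gene was called in the lists for amino acid stress, the unfolded protein response, heat shock, p53 targets, NRF2 targets, FOXO targets, lysosome, immediate early response or epithelial junctions. Nor was any of 80 ribosomal protein genes called, of which 11 were higher in all 4 pairs and 1 lower, with Rpl22 at 0.89 ± 0.19 (SE). Fabp3, a fatty acid binding protein, was called at 1.94 ± 0.54 (SE), with 19.6% of its exon length shared with another gene.

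Several short lists held 1 or 2 calls each. In the germline list 2 of 12 tested genes were called higher, Dazl, an RNA-binding protein of germ cells, and Asz1, a factor of the piRNA pathway. Dazl was at 8.0, 9.05, 10.2 and 4.43 CPM at D1 and 16, 24.8, 12 and 40.1 CPM at D5, and without Space R9wt its ratio was 0.88 and not called. Asz1 was at 0.284, 0.0465, 0.483 and 0 CPM at D1 and 0.82, 1.06, 1.76 and 1.18 CPM at D5, and it passed the filter only through its D5 level, so it had to be higher there. Of 8 genes of the 2-cell-like state tested, 2 were lower in all 4 pairs and called and none was higher, and the pair medians were -1.18, 0.31, -3.24 and 0.85, above 0 in both R9wt pairs. Zscan4d was at 40.6, 1.62, 143 and 1.72 CPM at D1 and 16.5, 0.726, 16.5 and 1.2 CPM at D5 and Zfp352 at 7.25, 0.0465, 16.7 and 0.149 CPM at D1 and 1.23, 0, 1.29 and 0.147 CPM at D5. Both were far higher in R9del than in R9wt at D1, and both calls were lost without the block or without Space R9del, where the ratios were -0.9976 and -1.79. Zfp352 was near the floor in every R9wt library, at 0.149 CPM or less, so its direction in the R9wt pairs carries little information. Zscan4d has near-identical copies that could share reads. H19, an imprinted noncoding RNA, was at 19.7, 2.15, 11.5 and 4.02 CPM at D1 and 84.7, 59.3, 13.7 and 42.8 CPM at D5, and Mest, an imprinted gene, was lower in all 4 pairs at -0.97 ± 0.20 (SE). Hoxb4 was called higher and Hoxb1 lower among 21 Hox genes tested, both at under 1 CPM in every library and each above the filter mostly through the group in which it was higher, and the Hoxb1 call was lost without Space R9del (-3.43) or Space R9wt (-3.16).

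The remaining calls were Flt1 and Cdh5, endothelial receptor and adhesion genes, at 1.42 ± 0.42 (SE) and 1.84 ± 0.63 (SE), Vegfc, a ligand, at -1.18 ± 0.49 (SE), Foxa2, an endoderm factor, at 2.24 ± 0.54 (SE), and B2m, the light chain of MHC class I, at 1.15 ± 0.41 (SE). Of these, Vegfc was not called without Ground R9del (-1.32), Ground R9wt (-0.59) or Space R9del (-1.42), nor without the block (-0.83), and Cdh5 not without the block or Ground R9wt (1.70). Flt1 was just under 2-fold without Space R9wt (0.99), and B2m was not called without Ground R9wt (0.72) or Space R9del (1.02).

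**Figure D3:**
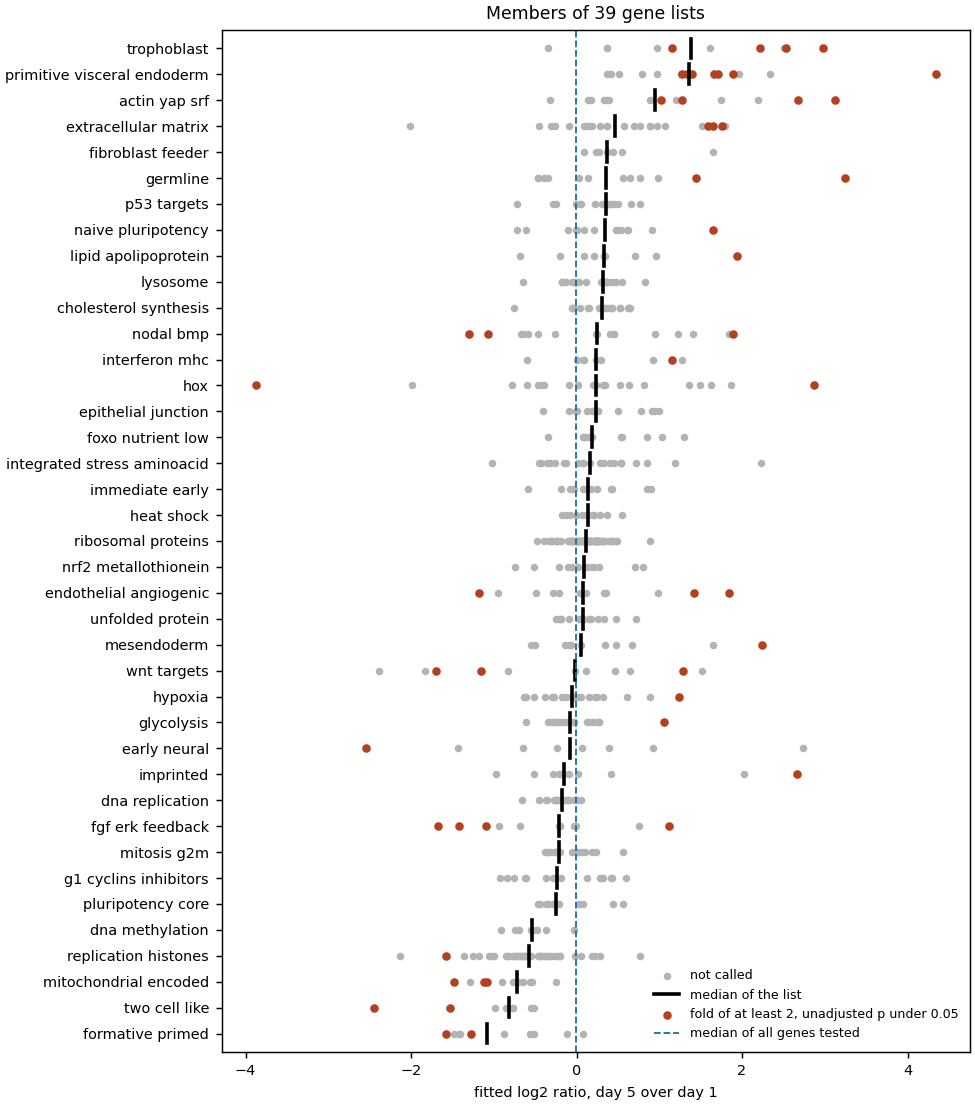
Fitted log2 ratio of day 5 over day 1 for the tested members of 39 gene lists (points), ordered by the median of the list (black bars), with called members in red and the median of all genes as a dashed line. The trophoblast list has the highest median (1.38), followed by the primitive and visceral endoderm (1.36), and the formative and primed list has the lowest (-1.08).

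Gene families defined by name or position were then examined. They were chosen after their values had been seen and are described without a test. The Xlr family of the X chromosome encodes nuclear proteins related to the synaptonemal complex protein Sycp3, and some of its copies are imprinted. Of 16 Xlr genes in the annotation, 8 passed the filter, and these 8 were higher in all 4 pairs and called. Members that passed only through their D5 level had to differ, so this count is no measure of the family. The summed level of the 8 was 2.33 to 9.13 CPM at D1 and 16 to 53.7 CPM at D5. Xlr3a (chrX:70331632-70342434) was at 2.75, 1.98, 3.61 and 1.72 CPM at D1 and 11.7, 11.2, 24.7 and 7.98 CPM at D5, with a ratio of 2.39 ± 0.27 (SE) and an adjusted p of 0.302. Xlr3b (chrX:70437546-70448269) was at 1.84, 0.838, 2.2 and 0.343 CPM at D1 and 5.64, 3.41, 14.1 and 3.8 CPM at D5, and Xlr3c (chrX:70499879-70510729) was at 3.08, 1.54, 2.26 and 0.194 CPM at D1 and 3.25, 2.86, 7.76 and 1.9 CPM at D5. Xlr3c was not called without Space R9del (1.31) or Space R9wt (0.90). Xlr4a, Xlr4b and Xlr4c were at mean levels of 0.193, 0.235 and 0.235 CPM at D1 and 1.33, 1.68 and 1.03 CPM at D5. Xlr4a and Xlr4b were at 0 in Space R9wt at D1. These genes passed the filter through their D5 level, so their fitted ratios of 3.06, 3.24 and 2.27 are no evidence of a direction.

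The 3 Xlr3 promoters are shown to let the copies be compared. They are RefSeq windows of 300 bases in GRCm38.p6, with CG dinucleotides in capitals, at chrX:73097046-73097345, minus strand, at chrX:73191929-73192228, plus strand and at chrX:73265341-73265640, minus strand.
Xlr3a: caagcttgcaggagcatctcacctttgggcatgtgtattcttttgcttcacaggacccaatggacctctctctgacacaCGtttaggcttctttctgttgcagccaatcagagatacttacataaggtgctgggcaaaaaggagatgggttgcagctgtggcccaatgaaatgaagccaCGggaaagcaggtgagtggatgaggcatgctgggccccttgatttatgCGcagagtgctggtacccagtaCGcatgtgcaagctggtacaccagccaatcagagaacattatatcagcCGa
Xlr3b: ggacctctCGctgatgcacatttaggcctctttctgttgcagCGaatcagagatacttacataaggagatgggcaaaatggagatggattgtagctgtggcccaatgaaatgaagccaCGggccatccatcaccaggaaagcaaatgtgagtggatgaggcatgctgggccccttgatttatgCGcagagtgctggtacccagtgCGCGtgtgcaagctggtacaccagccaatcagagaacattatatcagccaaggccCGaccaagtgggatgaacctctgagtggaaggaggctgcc
Xlr3c: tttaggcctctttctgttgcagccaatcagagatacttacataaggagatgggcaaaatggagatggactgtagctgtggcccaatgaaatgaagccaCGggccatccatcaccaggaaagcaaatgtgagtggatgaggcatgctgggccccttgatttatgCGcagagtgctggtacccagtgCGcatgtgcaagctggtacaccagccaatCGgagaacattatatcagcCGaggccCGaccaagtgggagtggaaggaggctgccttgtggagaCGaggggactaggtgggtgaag
In a global alignment Xlr3b and Xlr3c were identical at 83.8% of columns, Xlr3a and Xlr3b at 62.3% and Xlr3a and Xlr3c at 54.9%, where the annotated starts are offset from each other. They hold 5, 7 and 7 CG dinucleotides, close to the median of 7 over all promoters. This identity is that of promoter windows and not of exons, from which the counts come. Sharing of reads between Xlr3a, Xlr3b and Xlr3c was not tested, so the split of counts between them is uncertain.

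The Rhox homeobox genes, also on the X chromosome and active in placenta and gonads, had 6 of 28 members above the filter, of which 5 were higher in all 4 pairs and called. As for Xlr, members that passed only through their D5 level had to differ. Rhox6 (chrX:35180087-35183034) was at 2.62, 1.44, 3.38 and 0.552 CPM at D1 and 17.4, 11.8, 5.65 and 83.1 CPM at D5 and Rhox9 (chrX:35252274-35255044) was at 2.35, 1.51, 2.52 and 0.582 CPM at D1 and 15.3, 8.08, 3.92 and 64.8 CPM at D5. Both were highest in Space R9wt at D5. Among the 7 genes of the mu class of glutathione transferases on chromosome 3, 6 were higher in all 4 pairs and 4 were called. Gstm2 was at 7.79, 11.8, 9.08 and 8.62 CPM at D1 and 23.8, 54.5, 15.3 and 45 CPM at D5, and the ratios of Gstm3, Gstm5 and Gstm6 were 1.70, 1.30 and 1.52. Gstm1, the most abundant, had 0.81 ± 0.22 (SE). Counts of such related copies may be split between them.

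A window on chromosome 4 that holds a cluster of zinc finger genes was lower throughout much of its length. In a window of 2200 kb whose genes span chr4:145000148-147196335, 50 of 65 genes passed the filter, of which 31 were lower in all 4 pairs and 1 higher, and 18 were called lower and none higher. The median was -0.69, and it was -0.68, -0.64, -0.93 and -0.61 in the 4 pairs. In the flanks of 2200 kb on each side, 73 genes were tested, 3 were lower in all 4 pairs, none was called lower and the median was 0.09. Over all genes tested, 9.37% were lower in all 4 pairs and 2.01% were called lower. Gm13242 (now Zfp980, chr4:145104787-145294344) was at 154, 77.4, 48.4 and 17.6 CPM at D1 and 72.4, 18.9, 14.8 and 6.06 CPM at D5. Gm13138 (now Rex2, chr4:146395959-146434903) was at 123, 55.2, 42.7 and 14.7 CPM at D1 and 57.7, 17.1, 15.6 and 4.26 CPM at D5, and 2610305D13Rik (now Zfp979, chr4:146986046-147052416) was at 120.4, 75, 26.2 and 13.4 CPM at D1 and 59.3, 33.2, 10.9 and 6.32 CPM at D5. The ratio was -1.59 ± 0.22 (SE), -1.51 ± 0.21 (SE) and -1.13 ± 0.18 (SE) in the same order. Levels differed between pairs by several fold, with Ground R9del highest and Space R9wt lowest, and none of the 3 was called without the block. Gm13051 (now Zfp987), Zfp600 and Zfp534 had ratios of -1.72, -1.24 and -1.39, and Zfp600 was just under 2-fold without Space R9del (-0.98). The window was set by position and also holds other genes, such as Smarca5-ps and Rps19-ps3. Its counts and median are therefore not those of zinc finger genes alone. The zinc finger genes of this cluster are duplicated copies with similar exons, so reads may be divided between them and the members are not independent.

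**Figure D4:**
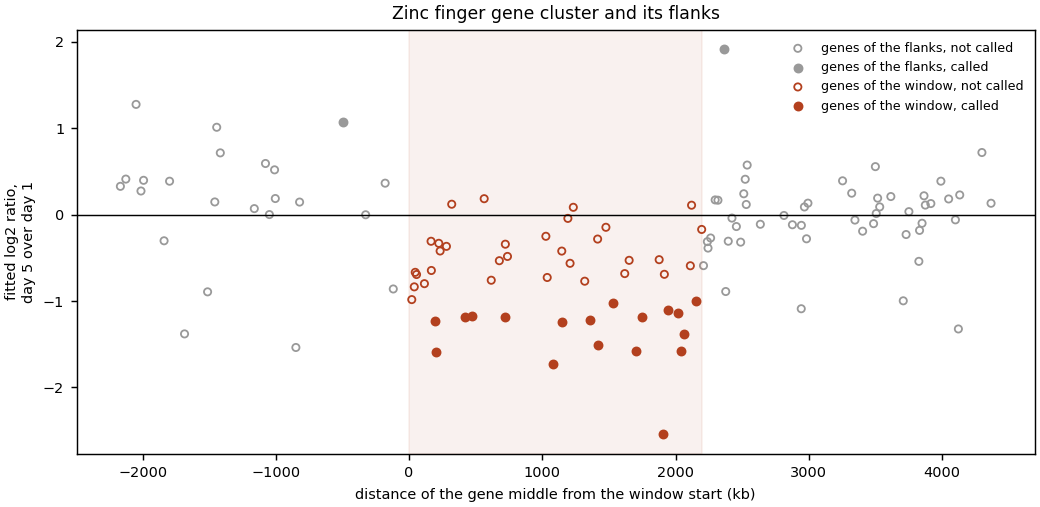
Fitted log2 ratio of day 5 over day 1 against the distance of each gene's middle from the start of the window (kb), for the 50 tested genes of the window (shaded) and 73 of its flanks. Filled points are called genes. The 18 called genes inside the window are all below 0, and the called genes of the flanks are both above it.

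Chromosome medians were compared over genes with a mean log2 CPM of at least 1, again after the values had been seen and without a test. Chromosome 8 had the lowest median among the chromosomes of the nucleus, at -0.09 over 681 genes, beside 0.03 over 13047 genes in all. Its median was below that of all genes in each pair, at 0.02, -0.13, -0.23 and -0.02 beside 0.04, -0.03, 0.01 and 0.10. Of its genes 13.7% were lower and 5.73% higher in all 4 pairs, beside 8.42% and 12.1% of all genes. The share of counts from chromosome 8 was 5.78%, 5.09%, 5.70% and 5.53% at D1 and 5.57%, 4.60%, 4.89% and 5.02% at D5. Col4a1 and Col4a2, described above as higher, lie on the same chromosome.

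**Figure D5:**
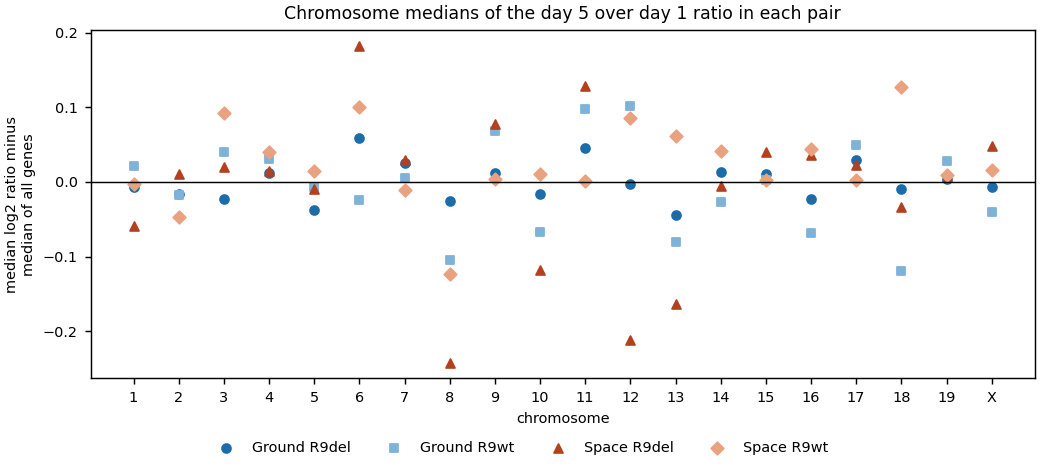
Median log2 ratio of day 5 over day 1 on each nuclear chromosome minus the median of all genes, in each of the 4 pairs, for genes with a mean log2 CPM of at least 1. The mitochondrial genome, with a lower median in every pair, is not plotted. Among the nuclear chromosomes plotted, chromosome 8 has all 4 points below 0.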

How the data were processed

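RNA from 8 mESC cultures was sequenced on an Illumina platform, 1 library per condition, with paired-end reads. The authors deposited raw read counts per Ensembl gene in a single table; the reads had been checked with FastQC and aligned to mm9 with TopHat2 2.0.9 at default settings. The counting program, the annotation release and the use of strand were not given in the sources used here, so reads of overlapping or near-identical genes may be misassigned. Of 50686 gene IDs, 35478 had a count above 0 and 32722 received a symbol from GENCODE for mm9. Newer symbols and promoter sequences (GRCm38.p6) came from RefSeq, and no coordinates were carried between builds.

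The counts were filtered with filterByExpr (minimum count 10, duration as the group), which left 20473 genes, and scaled by TMM in edgeR 4.0.16 (R 4.3.3). D5 was compared with D1 by the quasi-likelihood test with the pair of location and genotype as a block, and Benjamini-Hochberg adjustment ran over all genes tested. SE is the log2 ratio divided by the square root of F. Ratios within a pair used log2 CPM with a prior count of 2. The pairing comes from the labels: both libraries of a pair share cell genotype and location. Their deviations from the mean of their duration correlated at 0.375 to 0.576. The mean for other pairings, -0.152, is pushed below 0 by this centring, so the contrast does not test the pairing. Day by genotype and day by location terms were tested separately. DESeq2 1.42.0, other scalings, no filter, no block, location and genotype as covariates, and leaving out each pair were the alternatives, and the fits were tested on simulated data first. Leaving out a pair was numbered 1 for Ground R9del, 2 for Ground R9wt, 3 for Space R9del and 4 for Space R9wt. Dropping pairs from the count of genes with 2-fold changes and from both interaction terms was added after seeing the data.

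The 24 genes named first were the 12 in each direction with the largest change in their weakest pair, among genes with a mean log2 CPM of at least 1, the same direction in all 4 pairs, at least a 2-fold change and unadjusted p below 0.05 (282 candidates higher, 132 lower). The comparison and the 39 gene lists were chosen with earlier results of these data known. List members that were called are named, with a few others for their role, except that a few results are not reported here. Counts and medians over a list are descriptions, not tests. Total counts ranged from 58238440 to 96416907 per library.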

Additional observations from a re-analysis of the deposited data

Results flagged for a closer look

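The level of each named gene was checked for a library that stood apart from the other 3 of its duration (Dixon's ratio of the gap to the range on log2 CPM, at the 95% critical value for 4 libraries). Of 288 groups checked, 8 exceeded it, and chance alone would give about 1 in 20. For Hoxb1 at D5 the ratio was 1, because Ground R9del had 0.164 CPM and the other 3 libraries were at 0. Axin2 at D1 was lowest in Ground R9wt (0.846), at 2.93 CPM, and Etv4 at D1 was highest in Ground R9del (0.995), at 237 CPM beside 124 to 125 CPM. Tcl1 at D5 was lowest in Ground R9wt (0.893), at 86.1 CPM. Xlr4a at D1 was lowest in Space R9wt (0.925). Xlr5b was highest in Space R9del at both durations, with a ratio of 1 at D1 and 0.905 at D5. Rhox13 at D1 was lowest in Space R9wt (0.833).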

How the results depend on the processing

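No gene passed an adjusted p of 0.05 in any edgeR fit of D5 against D1, under any scaling, without the filter, without the block, with location and genotype as covariates, or without any 1 pair. DESeq2's Wald test called 330 genes higher and 166 lower at that threshold. At the unadjusted threshold the lower count was 411, with 217 without the replicate block and 628 in DESeq2, and leaving out a pair gave 500 to 684 genes higher and 336 to 537 lower. The share of calls that were higher was 58.9%, against 69.7% without the block and 48.2% without Space R9wt. Genes with a 2-fold change in all 4 pairs came to 13 higher and 7 lower at a mean of at least 10 CPM, and to 202 to 276 higher and 145 to 178 lower over any 3 pairs, which ask for fewer pairs to pass. For day by genotype, the adjusted count of 0 became 2 with both day terms in 1 fit, 142 in DESeq2 and 0 to 22 without a pair, and the unadjusted count of 771 ran from 232 to 3324 without a pair. For day by location, it became 2 with both terms, 56 in DESeq2 and 1 to 14 without a pair, and the unadjusted count of 1042 became 1735 in DESeq2 and 417 to 2126 without a pair. The cause of these shifts was not tested. Of 144 named genes, 96 were called and 49 of these kept the call in every setting. Without the block 31 of the 96 calls were lost, among them Fabp3 (1.90), Gstm3 (1.84), Gm13051 (-1.43), Zfp534 (-1.35), Hist2h2bb (-1.53), Hk1 (0.94) and Hoxb1 (-2.65). Pou5f1 ran from -0.337 to 0.0041 without a pair, turning sign without Ground R9wt. Sox2 was -0.0215 without the block and ran from -0.104 to 0.355 without a pair, turning sign without Space R9wt. With 1 library per condition, differences between pairs cannot be separated from library-to-library error.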

Other observations

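The transfer RNA genes of the mitochondrial genome were examined after their values had been seen. Of 22 genes, 21 passed the filter, 13 were lower at D5 in all 4 pairs and none was higher, and 11 were called lower. Among all genes tested, 9.37% were lower and 10.6% higher in all 4 pairs, and 2.01% were called lower. Some members were near the floor at D5, such as mt-Ty at 0.0335 CPM in Space R9del and 0.0819 CPM in Space R9wt. Members that passed the filter only through their D1 level had to differ, so these counts are no measure of the family. Whether the counts reflect mature transfer RNA was not tested. The median log2 ratio of the 21 genes was -1.55, at -0.24 in Ground R9del, -2.48 in Ground R9wt, -0.88 in Space R9del and -1.65 in Space R9wt. Their summed level was 16.9 to 84.8 CPM at D1 and 9.76 to 46.1 CPM at D5, so the ranges overlapped.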
